A study of Oncorhynchus mykiss with 6 samples.

Results

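The miR-30 family was represented by 3 rows of a table of 1939 mature miRNAs, chosen by name alone: miR-30-x, miR-30-y and miR-30-z. The table holds small RNA counts from rainbow trout (Oncorhynchus mykiss) dorsal skin at 45 days of age. A group of 3 libraries came from a yellow mutant with yellow skin (YR) and another of 3 from black-skinned wild-type trout (WR), and the series looks for miRNAs tied to this difference in skin colour. The labels do not name the gene or allele of the yellow mutant, and they do not say whether the libraries of a group are separate fish, so each p-value measures the spread between these libraries, which may be technical.

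MicroRNAs are short RNAs that guide Argonaute proteins to messenger RNAs, mainly by pairing of the seed, bases 2 to 8 counted from 1 at the 5′ end. A hairpin precursor yields a 5p and a 3p strand, and usually one of them is kept. The miR-30 family is conserved among vertebrates and made by several lettered genes that share a 5p seed. In mammals it is expressed in many tissues, is known for holding back the change of epithelial into mesenchymal cells, and acts in fat, muscle and skin cells. Because the rows carry no letter, the members of the family cannot be told apart by name.

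The listed sequences were compared to tell the strands apart. They are copied from the deposited table as DNA letters, 5′ to 3′, with the seed in capitals.
miR-30-x: tGTAAACAtccttgactggaagct
miR-30-z: tGTAAACAtccacgactggaa
miR-30-y: cTTTCAGTcggatgtttgcagc
The x and z rows share the seed GTAAACA, and no other row of the 1939 has it. Over their 21 shared bases x and z are identical at 19. They differ by T12A and T13C, where the first letter is the base in x, the number is the position from the 5′ end and the last letter is the base in z. The x sequence runs 3 bases further at its 3′ end, for a length of 24 against 21. The y row, 22 bases long, has the seed TTTCAGT, which it shares with no other row.

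The x and y sequences could pair over most of their length. RNAduplex placed 20 base pairs between them at a predicted energy of -26.9 kcal/mol, and left bases 12 and 13 of x unpaired inside the duplex. These are the positions at which z differs from x. The pairing of z with y had 18 base pairs at -24 kcal/mol, with the same inner bases unpaired. The last paired base was 22 in x and 20 in z, which is the shorter sequence. Because both pair with y, the pairing cannot tell whether y shares a precursor with x or with z. It also cannot tell which strand is 5p, and no precursor was examined. Here x and z are named 5p strands from the known 5p seed of the family, and y is named the 3p strand. No row outside the family came within 2 substitutions at the same length. Aligned from the 5′ end without gaps, every other row differed from x and from y at 9 bases or more and from z at 8 or more. Each of the 3 sequences is listed once, so none is repeated under another name. Whether a read could count toward more than 1 row is not given.

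Library totals ran from 8245698 to 10336991 counts, and 1 read was worth 0.101 to 0.127 TPM. WR replicate 1 stood apart from the other 5 libraries: names of an imprinted miRNA cluster of placental mammals took 37836 counts there and 717 to 1230 in the others, its TMM factor of 1.19 was the highest (0.841 to 1.08 in the others), and its chi-square over degrees of freedom against the other WR libraries was 405 and 527, against 65.2 to 237 for the other replicate pairs. The levels, shares and ratios of miR-30 are given with and without it, except the ratio of z to y, which is given by library only. The epithelial families of the list (miR-200, miR-141, miR-429, miR-205 and miR-203) were all present, with a summed level of 66933 to 79252 TPM in YR and 84305 to 89182 TPM in WR.

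The main strand, miR-30-x, was abundant in skin of both colours and its groups overlapped. It had 20607, 16878 and 18531 TPM in YR replicates 1, 2 and 3, against 15583, 24426 and 22184 TPM in the WR replicates. WR replicate 1 was the lowest of the 6 libraries and WR replicates 2 and 3 were the highest. The means were 18672 ± 1868 TPM in YR and 20731 ± 4597 TPM in WR (SD, n = 3 each). After TMM scaling, which corrects for the make-up of each library, the log2 fold change of YR over WR was 0.07 (SE 0.23; edgeR adjusted p = 0.868). Its direction depended on the scaling, at -0.15 with library totals alone and -0.00 with median-of-ratios scaling. Without WR replicate 1 it was -0.27 (SE 0.12; edgeR adjusted p = 0.179). In such bulk tissue a change in the number of cells of a type and a change in RNA per cell cannot be told apart.

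**Figure D1:**
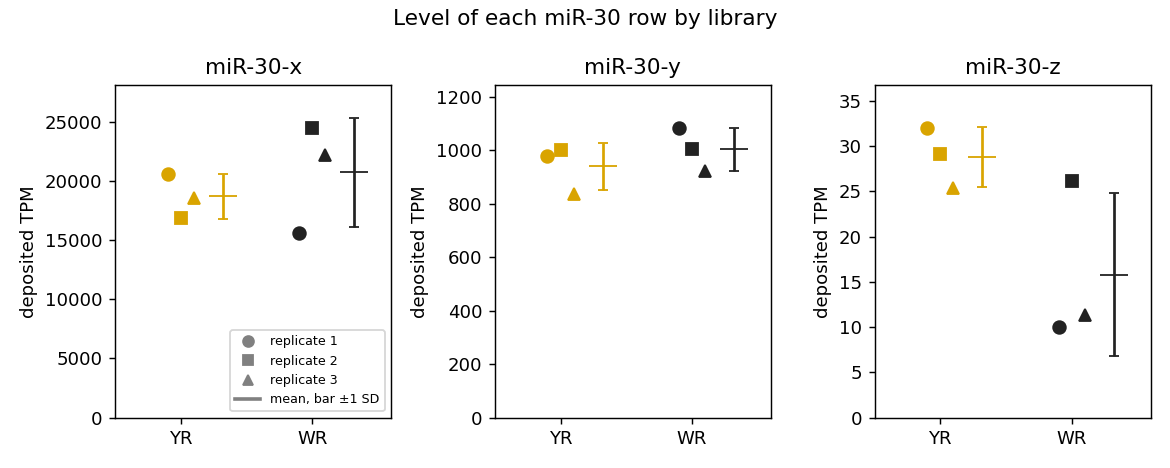
Deposited TPM of the 3 rows in each library, with YR left of WR; symbols mark the replicate number and the bar beside each group gives its mean ± 1 SD (n = 3). The groups overlap in all 3 rows, and for miR-30-z the overlap comes from WR replicate 2, at 26.1 TPM.

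The 3p strand, miR-30-y, was the steadiest of the 3 rows. It had 978, 1002 and 837 TPM in the YR libraries, against 1081, 1002 and 923 TPM in the WR libraries. The highest library exceeded the lowest by 1.29-fold, compared with 1.57-fold for miR-30-x and 3.2-fold for miR-30-z. Its means were 939 ± 89.2 TPM in YR and 1002 ± 79.1 TPM in WR (SD, n = 3 each), and its log2 fold change was 0.14 after TMM scaling (SE 0.10; edgeR adjusted p = 0.425) and -0.09 with library totals alone. Without WR replicate 1 the log2 fold change was 0.01 after TMM scaling (edgeR adjusted p = 0.969).

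The scarce 5p variant, miR-30-z, had higher means in yellow skin without passing the test. It had 31.9, 29.1 and 25.4 TPM in the YR libraries, from 311, 229 and 252 reads, against 9.97, 26.1 and 11.3 TPM in the WR libraries, from 82, 228 and 100 reads. The YR libraries lay close together, while WR replicate 2 stood at the YR level and the other WR libraries well under it. The 95% exact Poisson interval was 65.2 to 102 reads for the lowest count and 199 to 260 reads for WR replicate 2, for counting error only. The means were 28.8 ± 3.31 TPM in YR and 15.8 ± 8.98 TPM in WR (SD, n = 3 each). The log2 fold change was 1.09, or 2.13-fold (SE 0.41; edgeR unadjusted p = 0.0362, adjusted p = 0.199). Without WR replicate 1 it was 0.71 (edgeR adjusted p = 0.143), and over all alternatives it was positive, from 0.71 to 1.52, with adjusted p from 0.11 to 0.38. After TMM scaling the groups did not overlap, with TMM-scaled CPM (counts per 1000000) of 29.8, 30.4 and 29.0 in YR against 7.93, 23.0 and 11.0 in WR. Such a separation with YR higher was present in 18.1% of all tested miRNAs, known and predicted. Its share among known rows alone is not given on this scale. In deposited TPM 0 of the 3 rows were separated, against 28.3% of all tested, known and predicted, in either direction. Among known rows in deposited TPM, YR was separated as higher in 13 of 174 x, 8 of 165 y and 6 of 89 z rows. It was separated as lower in 25, 26 and 9.

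Of the 3 rows, 3 had a mean of at least 1 TPM and entered the test, and edgeR called 0 of them with adjustment over the 834 miRNAs tested. Among the known miRNAs tested, 2 of 174 x, 3 of 165 y and 1 of 89 z rows passed as higher in YR. As lower in YR, 3, 0 and 1 passed. Over all 834, known and predicted, 5.28% passed, 18 (2.16%) higher and 26 (3.12%) lower in YR. This split depended on the scaling, with 1 higher and 29 lower with library totals alone and 4 higher and 37 lower with limma on log2(TPM + 1); the median over all tested was a log2 fold change of -0.03 after TMM scaling, against -0.26 from totals. At an unadjusted p under 0.05 there was 1 of the 3, miR-30-z, against 21.7% of all tested. In an edgeR fit of the 428 known miRNAs alone, 52 had an unadjusted p under 0.05, and that of miR-30-z was 0.063. DESeq2 gave 0 calls among them and 9.11% over all tested, with adjusted p from 0.144 for z to 0.9996 for x. A limma fit on log2(TPM + 1) gave 0 among them and 4.92% over all tested, with adjusted p from 0.202 for z to 0.75 for x. The median size of a log2 fold change over all tested miRNAs was 0.448, and 785 of the 834 had a larger one than miR-30-x, 718 than miR-30-y and 167 than miR-30-z. The authors' deposited table gives log2 fold changes of -0.15 for x, -0.09 for y and 0.86 for z, with p-values of 0.973, 0.827 and 0.0495 and adjusted p-values of 1, 1 and 0.337.

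**Figure D2:**
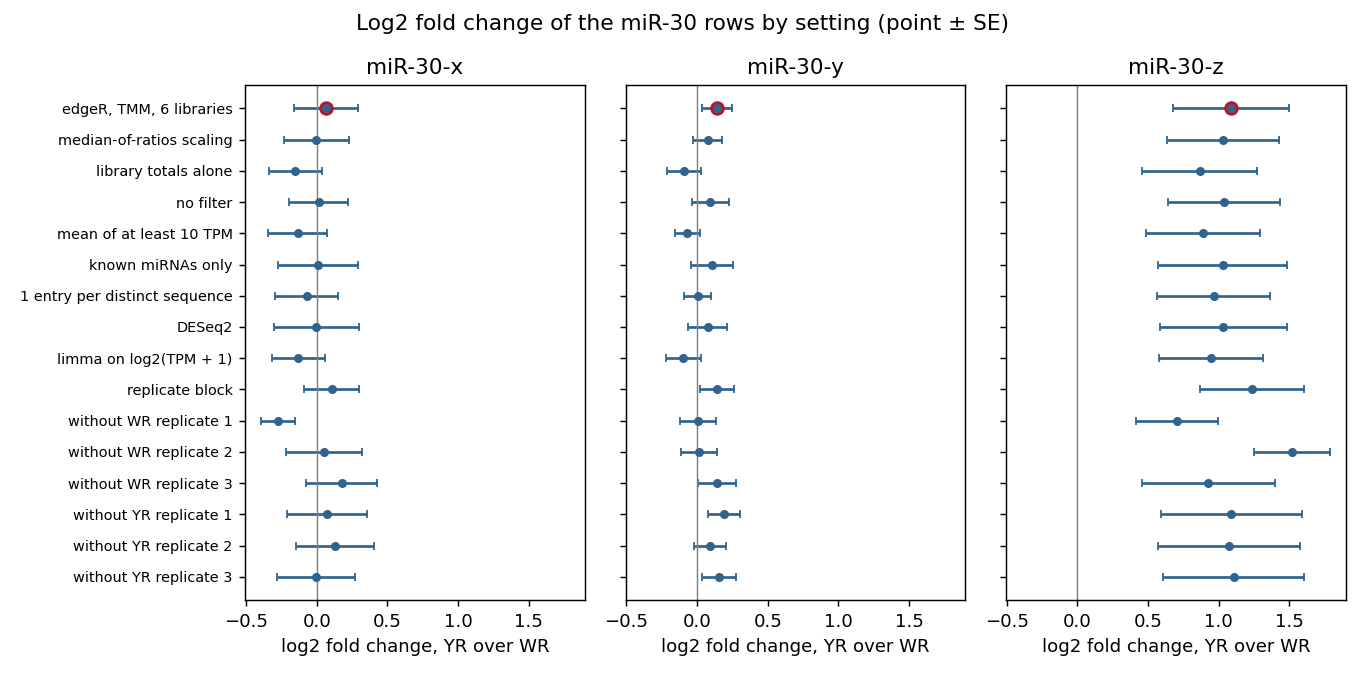
Log2 fold change of YR over WR for each row under the edgeR test with TMM scaling (red, top) and each alternative, as point ± SE. The values of miR-30-x and miR-30-y lie on both sides of 0, from -0.27 to 0.18 and from -0.10 to 0.19, and those of miR-30-z lie above it.

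The share of the libraries that the 3 rows took together did not differ between the groups beyond its spread. The share was 2.06%, 1.71% and 1.86% of all counts in the YR libraries, against 1.58%, 2.43% and 2.22% in the WR libraries, each with a 95% exact binomial half-width of at most 0.00997 percentage points. The mean share was 1.88% ± 0.172 in YR and 2.08% ± 0.439 in WR (SD, n = 3 each), a difference of -0.20 percentage points (2-sided exact permutation p = 0.5, adjusted over 4 shares 0.5; 3 against 3 cannot give less than 0.1). Without WR replicate 1 the difference was -0.446 percentage points (2-sided exact permutation p = 0.2, the smallest then possible), and without WR replicate 2 it was -0.0249 (p = 1). Leaving out WR replicate 3 gave -0.128, and leaving out YR replicate 1, 2 or 3 gave -0.289, -0.117 or -0.194. Of all miR-30 counts, 95.2% were in x, 4.65% in y and 0.108% in z. The shares of the single rows differed by -0.195 points for x, -0.00592 for y and 0.00124 for z (2-sided exact permutation p = 0.5, 0.5 and 0.2). Without WR replicate 1 they differed by -0.444, -0.00237 and 0.00096 points, and over all single libraries left out by -0.444 to -0.0207 for x, -0.00942 to -0.00129 for y and 0.00096 to 0.00173 for z.

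The arm ratio did not differ between skin colours beyond its spread. There were 21.1, 16.8 and 22.1 reads of x per read of y in the YR libraries, against 14.4, 24.4 and 24.0 in the WR libraries. WR replicate 1 again had the lowest value, and the 3 YR libraries lay between it and the other WR libraries. On the log2 scale, as log2 of (x TPM + 1) over (y TPM + 1), the ratio was 4.31 ± 0.21 in YR and 4.35 ± 0.43 in WR (SD, n = 3 each), a difference of -0.03 (SE 0.27; limma adjusted p = 0.968). Without WR replicate 1 the difference was -0.28 (SE 0.18; limma adjusted p = 0.433). The same ratio was tested for 163 families with an x and a y row. By limma 0% of them passed, 21 had p under 0.05 before adjustment, and in 153 of them the difference was larger in size than that of miR-30. In 92 of the 163 the x row was the more abundant, and miR-30 ranked 30 from the x end.

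**Figure D3:**
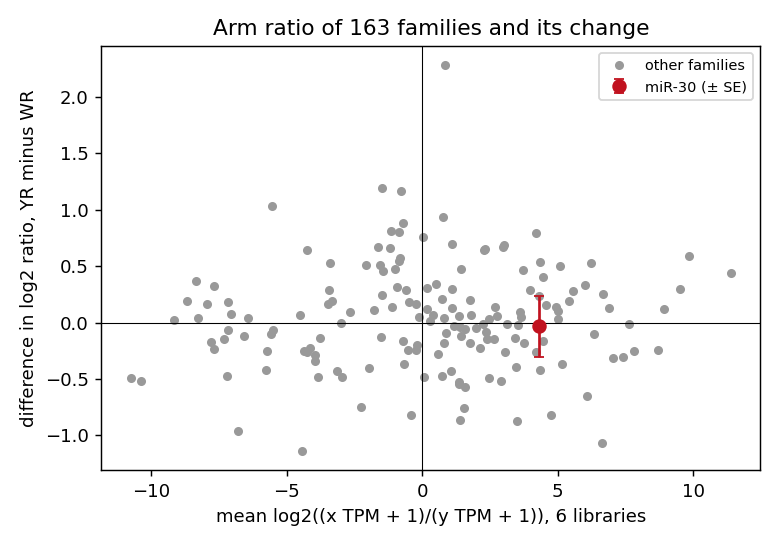
Each point is a family with an x and a y row: its mean log2 arm ratio over the 6 libraries on the horizontal axis (above 0, more x) and the difference of that ratio, YR minus WR, on the vertical axis. miR-30 (red, ± SE) lies at 4.33 on the first and -0.03 on the second.

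In the ratio of the 5p variants the groups did not overlap, a separation that was common among families with an x and a z row. There were 15.5, 17.2 and 13.7 reads of z per 10000 reads of x in the YR libraries, against 6.40, 10.7 and 5.10 in the WR libraries, so that every YR library was above every WR library. The log2 ratio of z to x was -9.34 ± 0.17 in YR and -10.46 ± 0.54 in WR (SD, n = 3 each), a difference of 1.12, or 2.18-fold (2-sided exact permutation p = 0.1, which is the lowest that 3 against 3 can give). This ratio was chosen after its values were seen. It does not depend on the scaling of the libraries. Its difference was 1.06 without WR replicate 1 (2-sided exact permutation p = 0.2, the smallest then possible). Over all single libraries left out, the difference ran from 0.89 to 1.42. Among 51 families with an x and a z row of at least 1 TPM each, 21.6% had such a separation with YR higher. A separation of this kind was therefore common. Toward YR, 2 of the 51 had a larger difference than miR-30. In the other direction that of miR-196 was larger in size, at -2.99. Against the 3p strand, z had 32.7, 29.0 and 30.3 reads per 1000 reads of y in the YR libraries and 9.22, 26.1 and 12.3 in the WR libraries. The groups did not overlap, as in 9.43% of 53 families with a y and a z row of at least 1 TPM each with YR higher; this ratio uses the same z reads and was also chosen after its values were seen.

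**Figure D4:**
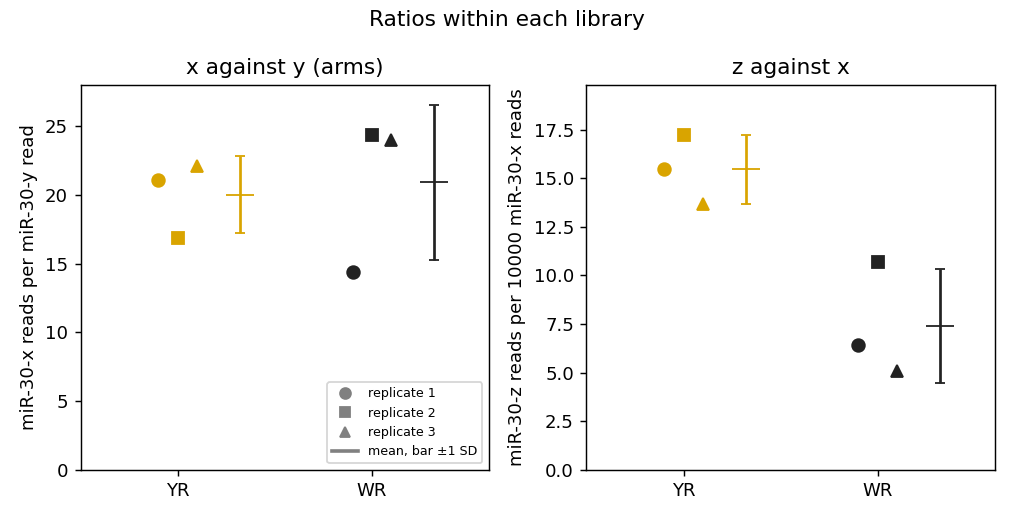
Left, reads of miR-30-x per read of miR-30-y; right, reads of miR-30-z per 10000 reads of miR-30-x, in each library, with YR left of WR and the bar giving the group mean ± 1 SD (n = 3). The groups overlap on the left; on the right the YR libraries lie at 13.7 to 17.2 and the WR libraries at 5.10 to 10.7.

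By mean TPM over the 6 libraries, miR-30-x ranked 17 of 709 known miRNAs, miR-30-y 53 and miR-30-z 210. The rank of x ran from 14 to 18 in single libraries. Its neighbours in the order, miR-21-x, miR-184-y, miR-22-y and miR-100-x above it and miR-146-x under it, had ranges over the 6 libraries that overlapped its own of 15583 to 24426 TPM, and so did miR-200-y, further above. The next, miR-206-y of skeletal muscle, reached only 12963 TPM in its highest library. It was followed by miR-143-y, miR-203-y and miR-126-y, of which miR-143-y reached 20738 TPM in 1 library.

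Relative to 4 other families that are expressed in many tissues, miR-30-x was lower in YR on average, within the spread. The log2 ratio of its counts to those of miR-26-x was -1.82 ± 0.15 in YR and -1.50 ± 0.40 in WR. To miR-181-x it was -2.23 ± 0.19 in YR and -1.93 ± 0.29 in WR. To let-7-x, a family of differentiated cells, it was -0.60 ± 0.16 in YR and -0.44 ± 0.37 in WR, and to miR-101-y 3.15 ± 0.05 in YR and 3.64 ± 0.46 in WR (SD, n = 3 each in all 4). The differences were -0.31, -0.30, -0.16 and -0.49 (2-sided exact permutation p = 0.3, 0.2, 0.6 and 0.3; adjusted over the 4 ratios 0.4, 0.4, 0.6 and 0.4). The 4 families enter these differences too, and in deposited TPM their own means were higher in YR. The means in YR and WR were 65745 and 57776 TPM for miR-26-x, and 87322 and 77602 for miR-181-x. For let-7-x they were 28167 and 27553 TPM, and for miR-101-y 2103 and 1647. WR replicates 2 and 3 lay above every YR library in all 4 ratios and WR replicate 1 did not. Without it the differences were -0.55, -0.46, -0.37 and -0.75 in the order miR-26-x, miR-181-x, let-7-x and miR-101-y (2-sided exact permutation p = 0.2 each, the smallest then possible). Without WR replicate 2 they were -0.19, -0.17, -0.05 and -0.38 in the same order (2-sided exact permutation p = 0.6, 0.4, 1 and 0.6). Without the others in turn they ran from -0.38 to -0.21 for miR-26-x, -0.40 to -0.22 for miR-181-x, -0.24 to -0.07 for let-7-x and -0.51 to -0.33 for miR-101-y.

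**Figure D5:**
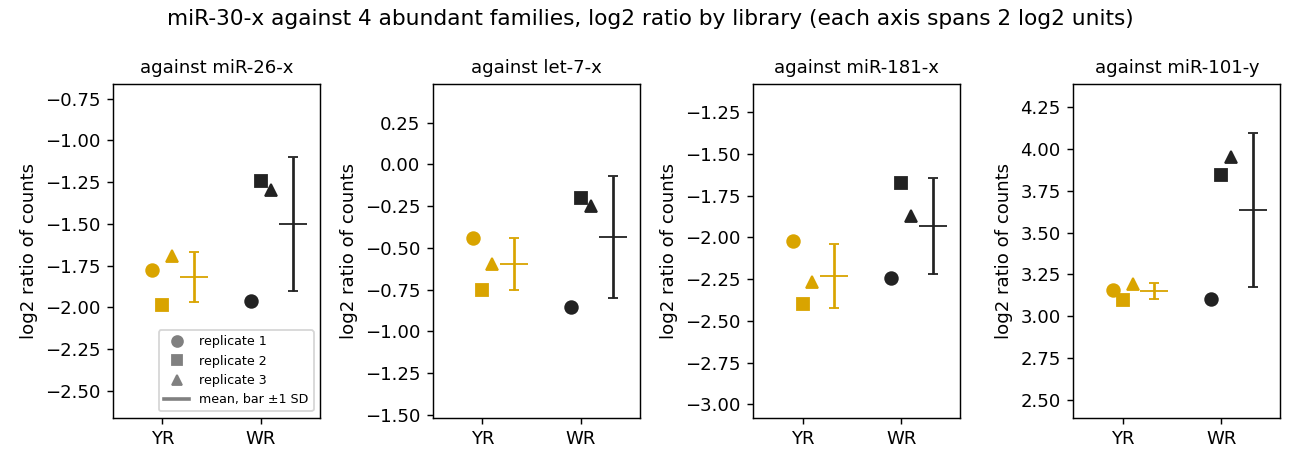
Log2 ratio of miR-30-x counts to those of 4 abundant families in each library, with YR left of WR and the bar giving the mean ± 1 SD (n = 3). In each panel WR replicates 2 and 3 lie above the YR libraries and WR replicate 1 does not.

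The miRNAs whose profile over the 6 libraries was closest to each row differed between x, y and z. Likeness was the root mean square difference of log2(TPM + 1), each centred on its own mean, over 253 known miRNAs of at least 10 TPM. For miR-30-x they were miR-142-y (0.0857), miR-731-x (0.102) and miR-20-x (0.112), against a median of 0.378 over the 253. For miR-30-y they were miR-457-z (0.0648), miR-18-x (0.0726) and miR-130-y (0.0806), against a median of 0.302. For miR-30-z they were miR-199-z (0.325), miR-100-z (0.361) and miR-99-z (0.40), against a median of 0.717.

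Families linked to epithelial and mesenchymal cells are given beside miR-30 because of its known role in both. Of 13 tested epithelial rows edgeR called 0, DESeq2 0 and limma 0, and 0 had an edgeR p under 0.05 before adjustment; 10 had negative log2 fold changes, and the median was -0.24, against -0.03 over all tested miRNAs. miR-205-x, of basal keratinocytes in mammals, stood at 34812 ± 4642 TPM in YR and 36243 ± 5776 TPM in WR (SD, n = 3 each). After TMM scaling its log2 fold change was positive, at 0.17 (edgeR adjusted p = 0.46). miR-200-y, which keeps epithelial cells epithelial in mammals, stood at 22989 ± 1202 TPM in YR and 29918 ± 2995 TPM in WR (SD, n = 3 each). The log2 fold change of miR-200-y was -0.16 (edgeR adjusted p = 0.534). Of 13 tested mesenchymal rows (miR-199, miR-214, miR-143, miR-145 and miR-21) 1 rose, miR-199-y, at 31932 ± 693 TPM in YR and 23040 ± 4794 TPM in WR (SD, n = 3 each; log2 fold change 0.73, edgeR adjusted p = 0.0341), and 12 did not pass (8 of 13 log2 fold changes positive, median 0.24). That is 1 of 13 against 2.16% of all tested, known and predicted. Of the 13, 4 had an edgeR p under 0.05 before adjustment, against 21.7% of all tested. DESeq2 called 3 of the 13, against 9.11% of all tested. limma called 0 (adjusted p = 0.127 for miR-199-y), against 4.92% of all tested. With known miRNAs only or with a replicate block, edgeR called 0 rows of the table as higher. The same held without WR replicate 2, WR replicate 3, YR replicate 1 or YR replicate 3. With library totals alone or without YR replicate 2 it called 1 row as higher, and without WR replicate 1 it called 34. Of the 4 most abundant mesenchymal rows, miR-199-x was also higher on average in YR, at 308232 ± 39107 TPM against 287633 ± 16923 TPM in WR. miR-21-x was lower, at 19969 ± 764 TPM in YR and 27746 ± 5052 TPM in WR. So was miR-143-y, at 9017 ± 1972 TPM in YR and 11543 ± 8096 TPM in WR (SD, n = 3 each). Their log2 fold changes were 0.34, -0.25 and -0.07 (edgeR adjusted p = 0.341, 0.503 and 0.922). The summed epithelial level given above was lower in every YR library than in any WR library in deposited TPM. Single rows with no overlap in deposited TPM made up 28.3% of all tested, in either direction. Among known rows, 25 of 174 x, 26 of 165 y and 9 of 89 z rows were separated as lower in YR. With TMM scaling the groups overlapped in the epithelial sum, at 73059 to 76534 CPM in YR and 69243 to 86665 CPM in WR. The part of this sum in the values of miR-30 was not tested.

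Summed levels of markers of other cell types, which rest on their most abundant rows, overlapped between the groups. The summed level of skeletal muscle families was 13007 to 24428 TPM in YR and 17320 to 22073 TPM in WR, and that of red blood cell families 229 to 404 TPM in YR and 237 to 489 TPM in WR. Leukocyte families summed to 1368 to 1494 TPM in YR and 1322 to 1610 TPM in WR, and nerve families to 4067 to 5566 TPM in YR and 3680 to 5819 TPM in WR. Pigment cell families, miR-204 and miR-211, summed to 65207 to 87205 TPM in YR and 65616 to 83984 TPM in WR. The mesenchyme and smooth muscle families (miR-199, miR-214, miR-143 and miR-145) summed to 317062 to 391484 TPM in YR and 313355 to 335412 TPM in WR. No family of these lists was without a row, and edgeR called 0 rows in the muscle, blood, leukocyte, nerve and pigment lists. Before adjustment p was under 0.05 for 1 of 9 muscle, 0 of 5 blood, 2 of 5 leukocyte, 5 of 10 nerve and 2 of 5 pigment rows. This stands against 21.7% of all tested, known and predicted, and 52 of 428 in an edgeR fit of known miRNAs alone. DESeq2 called 2 of 10 nerve rows, against 9.11% of all tested, and 0 in the other 4 lists, and limma called 0 in all 5. After TMM scaling, positive log2 fold changes were found in 9 of 10 nerve rows (median 0.64), 5 of 5 pigment rows (0.24), 4 of 5 leukocyte rows (0.15), 6 of 9 muscle rows (0.18) and 3 of 5 blood rows (0.01). Among all known rows tested they were found in 87 of 174 x, 72 of 165 y and 50 of 89 z rows. Such signs depend on the scaling: the median over all tested miRNAs was -0.03 after TMM scaling, against -0.26 from totals. In deposited TPM the most abundant pigment rows had like means. miR-204-x had 39747 in YR and 39817 in WR, and miR-211-z had 36355 in YR and 36268 in WR. The part of these lists in the values of miR-30 was not tested.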

How the data were processed

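Small RNA from dorsal skin was sequenced in 3 YR and 3 WR libraries. Per the labels' protocols, Trizol RNA was ligated to adapters, reverse transcribed, amplified and read on an Illumina HiSeq Xten. Not given in the sources used here: genome build, aligner, reference miRNAs and how reads with several matches were counted. The deposited counts, whole numbers per listed miRNA, were used as they stand. The deposited TPM is treated as a score, because its sum exceeds 1000000 in each library, and a TPM beside a count of 0 was set to 0. The authors also deposited a log2 fold change with a p-value, raw and adjusted, from a test those sources do not name. No genome was used.

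edgeR 4.0.16 (R 4.3.3) tested YR against WR with TMM scaling, the quasi-likelihood test, no replicate term and Benjamini-Hochberg adjustment at 0.05 over every miRNA whose mean reached 1 TPM. The SE is the size of the log2 fold change over the square root of F. Arm ratios were tested with limma 3.58.1 on log2 TPM with a pseudocount of 1, where either arm had a mean of at least 1 TPM. DESeq2 1.42.0 was an alternative. Shares and ratios of counts (pseudocount 1) were compared by exact permutation tests (scipy 1.17.1), and strands were paired with RNAduplex 2.7.2. Intervals cover counting error only. No library repeats another of its group: chi-square over degrees of freedom was 65.2 to 527 between replicates. Libraries of different groups were not compared in this way. The edgeR and limma steps were tested on simulated data.

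The members and lists were chosen with earlier results of these data known. Named are the miR-30 rows, rows of near-identical sequence, the 3 of closest profile to each and 5 on either side of x by level. The 4 like families and up to 4 members of 2 lists are also named, though not all of these members are. Outside this rule, the most abundant pigment rows were named, and miR-196 for its ratio of z to x.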

Additional observations from a re-analysis of the deposited data

How the results depend on the processing

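No miR-30 level or arm ratio passed the threshold of 0.05, in the values reported or under any alternative run. The exact permutation tests of the shares and count ratios could not pass it. Their smallest possible p is 0.1 for 3 against 3 libraries, 0.2 for 3 against 2 and 0.25 for 3 signed differences. miR-30-z kept a positive log2 fold change under all 15 alternatives. Its ratio to miR-30-x and the 4 ratios of miR-30-x to other families kept the sign of their differences under all 8. Of these 8, the replicate block cannot change a difference of means, and the pseudocount of 10 hardly moved the 4 ratios. The 4 ratios also share the same miR-30-x counts. The log2 fold change of miR-30-x turned negative with library totals alone (-0.15), median-of-ratios scaling (-0.0013), DESeq2 (-0.0013), the 10 TPM minimum (-0.13), 1 entry per distinct sequence (-0.069), limma (-0.13), without WR replicate 1 (-0.27) and without YR replicate 3 (-0.0035). That of miR-30-y did so with library totals alone (-0.092), the 10 TPM minimum (-0.069) and limma (-0.10). The cause was not tested. The arm ratio difference turned positive without WR replicate 2 (0.0955), WR replicate 3 (0.0854) or YR replicate 2 (0.0852). The difference in the share of miR-30-y turned to 0.00105 points without the 5 most abundant miRNAs in the total. Without single libraries the log2 fold changes ran from -0.27 to 0.18 for x, 0.0083 to 0.19 for y and 0.71 to 1.52 for z, and the arm ratio difference from -0.28 to 0.096. The count of all miRNAs past the threshold, 44, was 16 with the 10 TPM minimum, 0 with known miRNAs only (52 at an unadjusted p under 0.05), 21 with 1 entry per distinct sequence, 76 with DESeq2, 112 without WR replicate 1, and 1 to 112 over all single libraries left out. It was 2 with the replicate number as a block. Same-numbered YR and WR libraries deviated together with r of 0.302, -0.123 and 0.353, and differently numbered ones with r from -0.439 to 0.145. These values do not settle whether the numbers pair the libraries, and the main test has no replicate term. With the block the log2 fold changes were 0.11, 0.14 and 1.23 for x, y and z. The alternatives chosen after seeing the data were the median share, those of the ratio of z to x, the ratio of z to y and the TMM-scaled epithelial sum. The lowest depth behind a miR-30 value is that of miR-30-z, at 82 to 311 reads.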

Other observations

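A row outside the family shared a shorter part of the 5p seed. It is a predicted miRNA, named after its values were seen, with the same bases 2 to 7 as miR-30-x, in capitals here, and 9 mismatches to it over the length of 22 bases.
Predicted miRNA: tGTAAACtcacctgattcaact
It had 4, 2 and 8 reads in the YR libraries, against 14, 15 and 14 reads in the WR libraries, or 0.49 ± 0.284 TPM in YR and 1.67 ± 0.0743 TPM in WR (SD, n = 3 each). With a mean of 1.08 TPM it passed the minimum of 1 TPM only through WR, so no test is given; groups that do not overlap in TPM were found in 28.3% of all tested miRNAs.

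The first base of miR-30-x and miR-30-z is T and that of miR-30-y is C. Among known rows T stood first in 116 of 265 x rows, 103 of 255 y rows and 83 of 189 z rows. The GC content was 41.7% in x, 50.0% in y and 42.9% in z.

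Over all known miRNAs tested, z rows had a median log2 fold change of 0.08 (89 rows), x rows -0.00 (174 rows) and y rows -0.11 (165 rows). In 31 of the 51 families with x and z rows the ratio of z to x was higher in YR on average; in 11 the groups were apart with YR higher and in 2 with YR lower.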
